A study of Mus musculus with 10 samples.

Results

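The lysyl oxidase family comprises the 5 mouse genes Lox, Loxl1, Loxl2, Loxl3 and Loxl4. They were taken by gene symbol from a table of 28165 genes, and all 5 were found in it. Levels came from bulk mRNA sequencing of aortic smooth muscle cells of mouse embryos at embryonic day 15.5, in 5 Eln+/+ and 5 Eln-/- libraries. Parents were Eln(+/-) and carried Acta2-GFP, a green fluorescent reporter of the smooth muscle actin gene, so cells of both genotypes carry the reporter too. Cells were sorted as GFP+, CD31- (without an endothelial surface protein) and DAPI- (alive), and received no treatment. The labels do not name the Eln allele, say how many embryos went into a library or tell whether replicates came from different embryos. The p-values therefore measure only the spread between libraries, which may be technical. The comparison of genotypes asks how the cross-linking enzymes are expressed where elastin, one of their main substrates, is missing.

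Lysyl oxidases are secreted copper enzymes that oxidise lysine side chains of tropoelastin and collagen. The aldehydes formed then condense with neighbouring side chains into covalent cross-links, which make elastic fibres and collagen fibrils insoluble and strong. Mice without Lox die around birth with aortic aneurysms, and mice without Loxl1 have defects of elastic fibre upkeep. Lox and Loxl1 have propeptides that are cut off outside the cell, whereas Loxl2, Loxl3 and Loxl4 carry scavenger receptor domains ahead of the catalytic domain.

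The enzymes share a C-terminal catalytic domain with a copper site formed by clustered histidines. The coding stretch around that site is shown because it encodes this shared copper site and lets the members be compared base by base. Each sequence has 84 bases, is written 5′ to 3′ in the sense of the mRNA, and has the 4 codons of the histidine cluster in capitals, with other histidine codons left in lower case (GENCODE transcripts, GRCm38, the assembly also called mm10).
Loxl1: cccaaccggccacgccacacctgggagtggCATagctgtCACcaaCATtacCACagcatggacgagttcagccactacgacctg
Loxl2: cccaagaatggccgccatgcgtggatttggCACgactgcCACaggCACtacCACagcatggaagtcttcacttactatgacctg
Loxl3: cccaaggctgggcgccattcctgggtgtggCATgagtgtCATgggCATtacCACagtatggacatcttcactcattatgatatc
Loxl4: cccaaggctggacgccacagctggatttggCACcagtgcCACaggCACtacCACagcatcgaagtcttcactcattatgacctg
In each of the 4 genes the stretch crosses a junction between coding exons. The Loxl1 stretch runs over exons 3 and 4 of 7 (chr9:58293690-58294402, minus strand). The Loxl2 stretch runs over exons 10 and 11 of 14 (chr14:69682295-69689067, plus strand). The Loxl3 stretch runs over exons 10 and 11 of 14 (chr6:83049974-83050155, plus strand). The Loxl4 stretch runs over exons 11 and 12 of 15 (chr19:42598777-42599920, minus strand). Compared base by base without gaps, Loxl2 and Loxl4 were identical at 72 of the 84 positions (85.7%), Loxl3 and Loxl4 at 65 (77.4%) and Loxl2 and Loxl3 at 63. Loxl1 was identical to these 3 at 56 to 57 positions and to Lox at 74 (88.1%). Over whole transcripts, the longest run of bases shared by any 2 members was 32, between Lox and Loxl1, and no run of 50 bases was shared by any pair. Read length is not given in the sources used here.

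The genes lie on 5 chromosomes. In the GENCODE annotation Lox is on chromosome 18 (52516067 to 52529867, minus strand), Loxl1 on chromosome 9 (58287738 to 58313186, minus), Loxl2 on chromosome 14 (69609068 to 69695834, plus), Loxl3 on chromosome 6 (83034173 to 83052562, plus) and Loxl4 on chromosome 19 (42593982 to 42612813, minus). Exons of Lox overlap those of AC161119.1, an antisense transcript. Exons of Loxl2 overlap those of the antisense gene Gm27177 and of Mir6950, and exons of Loxl3 overlap those of Htra2 on the other strand. The strand setting of the counting is not given in the sources used here, so reads in those overlaps cannot be assigned with certainty.

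Libraries held 26951733 to 63866416 estimated counts. In 3 of them, Eln+/+ replicate 1 and Eln-/- replicates 4 and 5, only 15089 to 15925 genes had a count, against 18157 to 22951 in the other 7, and a ribosomal RNA gene model took 5.52% to 5.99% of counts against 0.225% to 2.96%. Eln, the targeted gene, was at 159, 1214, 175, 790 and 702 CPM (counts scaled to library size) in Eln+/+ replicates 1 to 5 and at most 0.493 CPM in any Eln-/- library, and the genotypes did not overlap. Its log2 fold change was -12.19 (SE 1.64, edgeR adjusted p = 0.152). It passed the threshold without Eln-/- replicate 1 (edgeR adjusted p = 0.0110), with DESeq2 (adjusted p = 1.26e-20) and with limma-voom with sample quality weights (adjusted p = 0.00781), and its exons overlap Gm30003. The smooth muscle markers Acta2 and Tagln reached at least 129 CPM in every library. Myh11, chosen after its values were seen as a marker of mature smooth muscle, ranged from 0.0377 to 119 CPM. Of the endothelial genes, Egfl7 and Tek, the most abundant of their list, reached 52.4 and 37.8 CPM. Pecam1, which encodes CD31, and Cdh5, both also named after their values were seen, stayed at or below 7.70 CPM. The fibroblast markers Dcn and Lum, the most abundant of their list, were present in every library, at 33.3 CPM or more. Of the same list, Scara5 fell to 0 CPM in libraries of both genotypes and Pi16 in Eln-/-, both named after their values were seen.

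Lox, the founding member that cross-links both elastin and collagen, was the most abundant member in CPM. Its level was 31.0, 913, 417, 691 and 360 CPM in the Eln+/+ libraries, in the order of replicates 1 to 5. The Eln-/- libraries, in the same order, had 1872, 919, 487, 53.4 and 73.2 CPM. The highest library was Eln-/- and the lowest Eln+/+, but 2 Eln-/- libraries were below all Eln+/+ libraries except the lowest, so the genotypes overlapped. Eln+/+ libraries averaged 482 ± 336 CPM and Eln-/- libraries 681 ± 754 CPM (SD, n = 5 per genotype). The log2 fold change of Lox was 0.50 (SE 0.99, 95% interval -1.68 to 2.67, edgeR quasi-likelihood adjusted p = 1.00, by Benjamini-Hochberg over 15718 genes). The sign turned without Eln-/- replicate 1, where the log2 fold change was -0.34.

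Loxl1, the paralog that acts mainly on elastin and binds fibulin-5, followed the same libraries. Its Eln+/+ libraries, replicates 1 to 5, were at 28.9, 449, 72.7, 466 and 265 CPM. Its Eln-/- libraries were at 859, 410, 281, 46.0 and 72.7 CPM. Eln+/+ replicate 3, which was in the middle of the Eln+/+ libraries for Lox, was low for Loxl1. The genotypes overlapped, and their means of 256 ± 204 (Eln+/+) and 334 ± 330 CPM (Eln-/-) gave a log2 fold change of 0.38 (SE 0.89, 95% interval -1.57 to 2.33, edgeR adjusted p = 1.00). Without Eln-/- replicate 1 it was -0.34.

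Loxl2, which is known for cross-linking collagen IV of basement membranes, was much less abundant. Eln+/+ replicates 1 to 5 were at 2.31, 60.1, 2.29, 29.1 and 15.8 CPM of Loxl2. Eln-/- replicates 1 to 5 were at 74.9, 23.3, 18.3, 6.68 and 3.32 CPM. Eln+/+ replicate 3 was as low as Eln+/+ replicate 1, although it was not among the libraries with few detected genes. The genotypes overlapped. The means were 21.9 ± 24.1 and 25.3 ± 28.9 CPM (log2 fold change 0.21, SE 1.02, 95% interval -2.03 to 2.45, edgeR adjusted p = 1.00). Without Eln-/- replicate 1 the log2 fold change of Loxl2 was -0.77, without Eln+/+ replicate 1 it was -0.083 and without Eln+/+ replicate 3 it was -0.085. The overlapping Gm27177 was at 0 to 4.53 CPM, highest in Eln-/- replicate 1.

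Loxl3, an enzyme needed for palate and spine development, was in the same range as Loxl2. Eln+/+ replicates 1 to 5 were at 2.31, 37.7, 11.5, 32.0 and 27.1 CPM of Loxl3, and Eln-/- replicates 1 to 5 at 64.3, 29.2, 33.4, 3.70 and 24.8 CPM. The genotypes overlapped. Eln-/- replicate 5 lay within the range of the libraries with many detected genes, whereas its Lox level lay below that range. The overlapping Htra2 was highest in that library, at 139 CPM against 39.8 to 90.1 CPM elsewhere, and its part in the Loxl3 value was not tested. The means of 22.2 ± 14.8 and 31.1 ± 21.8 CPM gave a log2 fold change of 0.49 (SE 0.80, 95% interval -1.26 to 2.24, edgeR adjusted p = 1.00), and 0.035 without Eln-/- replicate 1.

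Loxl4 transcripts were close to the limit of detection. Among Eln+/+ libraries, replicate 2 had 115 counts and replicate 4 had 1. Among Eln-/- libraries, replicate 1 had 106 counts and replicate 2 had 50. The other 6 libraries had 0. A count of 0 allows up to 3 counts, which is 0.0609 to 0.218 CPM in those 6 libraries and covers counting error only. The 3 libraries with more than 1 count were at 1.32, 1.45 and 0.762 CPM, also the 3 with the highest Lox. The gene did not pass the filter on low counts and was not tested.

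**Figure D1:**
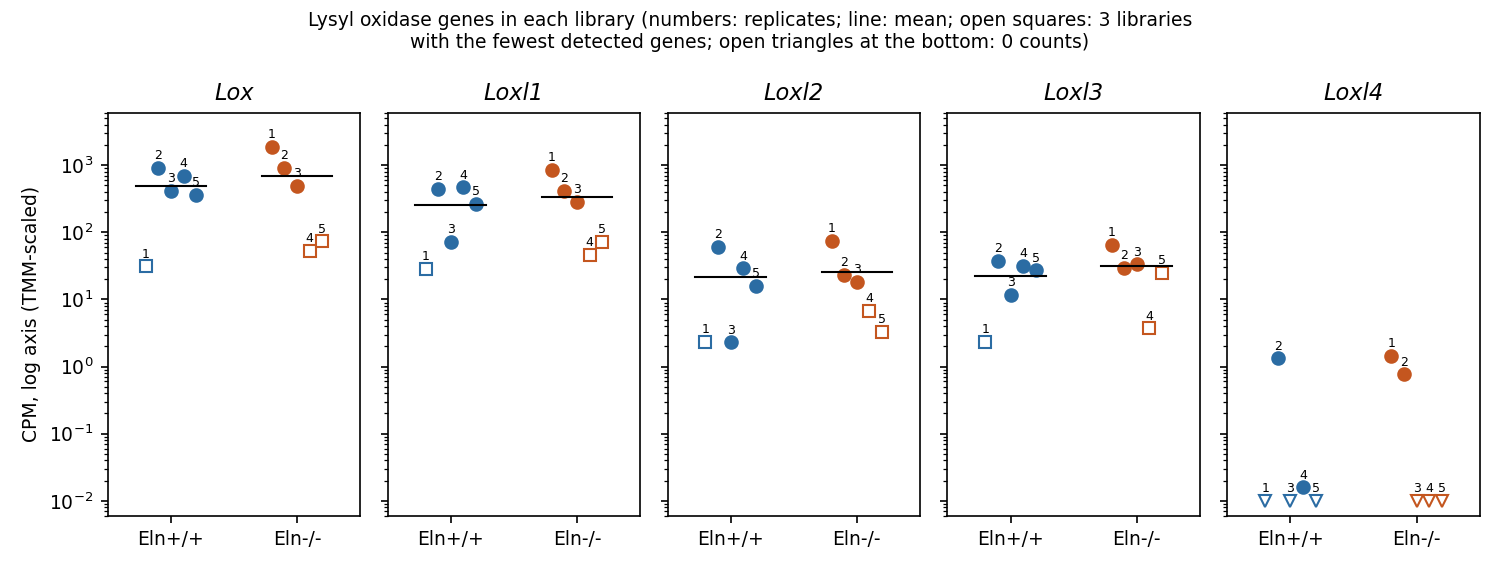
Level of each lysyl oxidase gene in CPM on a log axis, 1 point per library with its replicate number, Eln+/+ in blue and Eln-/- in orange; black lines are group means (not drawn for Loxl4). Lox in the 3 libraries with the fewest detected genes (open squares) sits between 31.0 and 73.2 CPM, against 360 to 1872 CPM in the other 7, and the genotypes overlap in every panel.

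The 4 tested members had positive fold changes, with a median log2 fold change of 0.43, against 0.021 over all genes tested, of which 51.5% were positive. None of the 4 passed the threshold of 0.05 with edgeR, where 0 of 15718 genes did (0%). None had an unadjusted p under 0.05, which 81 genes had (0.515%), and in none were the libraries of the genotypes apart, as they were in 48 genes (0.305%). DESeq2 called 6 genes and limma-voom with sample quality weights 7, none of them a lysyl oxidase. Each interval spans more than 3 log2 units, so changes of 2-fold in either direction lie within all 4. In bulk samples, fewer cells of a type and less RNA per cell cannot be told apart. The fibroblast markers, 12 of 12 of them detected, summed to 1334 to 4670 CPM in Eln+/+ and 601 to 3198 CPM in Eln-/-. Erythroid markers, 9 of a list of 10 found in the table, summed to 332 to 18910 and 23.2 to 5162 CPM. Immediate early and dissociation genes, 22 of 22 detected, summed to 1138 to 10580 and 1163 to 26860 CPM, and the highest value in each genotype was in the library with the highest Lox of that genotype (Eln+/+ replicate 2 and Eln-/- replicate 1). Endothelial markers (12 of 12 detected) summed to 15.1 to 94.2 and 36.1 to 61.5 CPM, and cardiomyocyte markers (12 of 12 detected) to 1.64 to 658 and 16.8 to 552 CPM. Macrophage and leukocyte markers (12 of 12 detected) summed to at most 26.7 CPM in any library. Smooth muscle markers summed to 1537 to 3311 CPM in Eln+/+ and 1303 to 5120 CPM in Eln-/-, with 10 of 12 fold changes positive. Chondrocyte markers, with Matn1 at 0 in every library, summed to 19.4 to 185 and 11.7 to 116 CPM. Both lists, like the immediate early genes, were highest in Eln+/+ replicate 2 and Eln-/- replicate 1. Epithelial markers, with 6 of 8 found and Cldn6 at 0 in every library, summed to 8.97 to 31.8 and 22.7 to 46.5 CPM. Glial and neural markers, with 11 of 12 found, summed to 34.7 to 174 and 26.4 to 94.5 CPM. Of the tested genes, fold changes were positive in 2 of 12 fibroblast, 20 of 21 immediate early and dissociation and 1 of 7 erythroid genes. Endothelial genes had 4 of 5 positive, cardiomyocyte genes 1 of 6, and macrophage and leukocyte genes 0 of 2. Chondrocyte genes had 2 of 6 positive, epithelial genes 3 of 4, and glial and neural genes 1 of 6. The part of these transcripts in the lysyl oxidase levels was not tested.

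The spread over libraries was much larger than the difference between genotypes. From the lowest to the highest library, Lox differed 60.4-fold, Loxl2 32.6-fold, Loxl1 29.7-fold and Loxl3 27.8-fold. The SD of log2 CPM over the 10 libraries was 1.98 for Lox, 1.67 for Loxl1, 1.84 for Loxl2 and 1.53 for Loxl3, near the median of 1.79 over all genes tested. In the 7 libraries with more detected genes the SD was 0.82 for Lox and 0.74 for Loxl3, and it stayed at 1.11 for Loxl1 and 1.64 for Loxl2. The summed level of the family was 64.5 to 174 CPM where few genes were detected, against 503 to 2871 CPM in the other 7 libraries. The summed smooth muscle markers (12 of 12 detected) overlapped between these sets, at 2040, 1303 and 3101 CPM in the 3 libraries and 1537 to 5120 CPM in the others. The part of the lower gene detection in the lysyl oxidase levels was not tested. Without the 3 libraries, Lox averaged 595 ± 257 CPM over 4 Eln+/+ libraries and 1093 ± 708 CPM over 3 Eln-/- libraries, and the log2 fold change of Lox was 0.90 (SE 0.53, edgeR adjusted p = 1.00).

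Levels of different genes were compared per kilobase of annotated exon. Neighbours were tested in the order of mean log2 level in these same libraries, so the pairs were not set beforehand. The p-values do not allow for that choice. Lox was at 122 ± 117 CPM per kb over the 10 libraries, Loxl1 at 89.5 ± 79.4, Loxl3 at 5.78 ± 3.95, Loxl2 at 4.37 ± 4.65, and Loxl4 was at 0.345 CPM per kb or below in every library. Lox and Loxl1 did not differ beyond their spread, with Lox higher in 6 of 10 libraries (mean log2 difference of levels per kb 0.26 ± 0.74, two-sided exact sign-flip permutation test, p = 0.320, Benjamini-Hochberg adjusted p = 0.320 over 4 steps). In the 3 libraries with few detected genes (Eln+/+ replicate 1, Eln-/- replicates 4 and 5), Loxl1 was at 125% to 144% of Lox per kb. The other library with Loxl1 higher was Eln+/+ replicate 5, at 107%. Loxl1 was higher than Loxl3 in 10 of 10 libraries, by 13.5-fold on average (log2 difference 3.75 ± 0.71, exact p = 0.00195, adjusted p = 0.00391). Loxl3 and Loxl2 did not differ beyond their spread, with Loxl3 higher in 8 of 10 libraries (log2 difference 0.79 ± 1.21, exact p = 0.0605, adjusted p = 0.0807). That step passed with the longest transcript as the length (adjusted p = 0.0339), and also without Eln+/+ replicate 2 (0.0469) or Eln-/- replicate 4 (0.0365). Loxl2 was higher than Loxl4 in 10 of 10 libraries (exact p = 0.00195, adjusted p = 0.00391), and the smallest p this test allows is 0.00195. The size of that last step rests on the prior count in the libraries where Loxl4 had no counts, and is not read here.

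In rank, Lox stood between 99 and 1037 of 27290 genes per kb in the 7 libraries with more detected genes and between 3157 and 4294 in the other 3. Loxl1 ranked 162 to 2562 and 2624 to 3760 in the same libraries. The family's transcripts were therefore mostly Lox and Loxl1. Lox made up 53.4% ± 14.6 of the family's CPM per kb in Eln+/+ and 48.9% ± 10.3 in Eln-/- (SD, n = 5 each). Loxl1 made up 41.9% ± 13.5 and 44.3% ± 6.52, Loxl3 2.72% ± 0.592 and 4.61% ± 4.42, Loxl2 1.96% ± 1.07 and 2.20% ± 1.34, and Loxl4 at most 0.0903% in any library. The shares also differed with gene detection. Lox took 35.3% to 41.2% in the 3 libraries with few detected genes (Eln+/+ replicate 1, Eln-/- replicates 4 and 5), against 45.8% to 77.7% in the other 7. Loxl1 took 50.8% to 54.2% in those 3, against 19.7% to 48.9%. The part of this in the genotype means was not tested. Single libraries stood apart as well. In Eln+/+ replicate 3, Lox took 77.7% and Loxl1 19.7%, with Loxl2 at 0.378%. In Eln-/- replicate 5, Loxl3 took 12.4%, against 1.94% to 3.67% in the other 9 libraries.

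**Figure D2:**
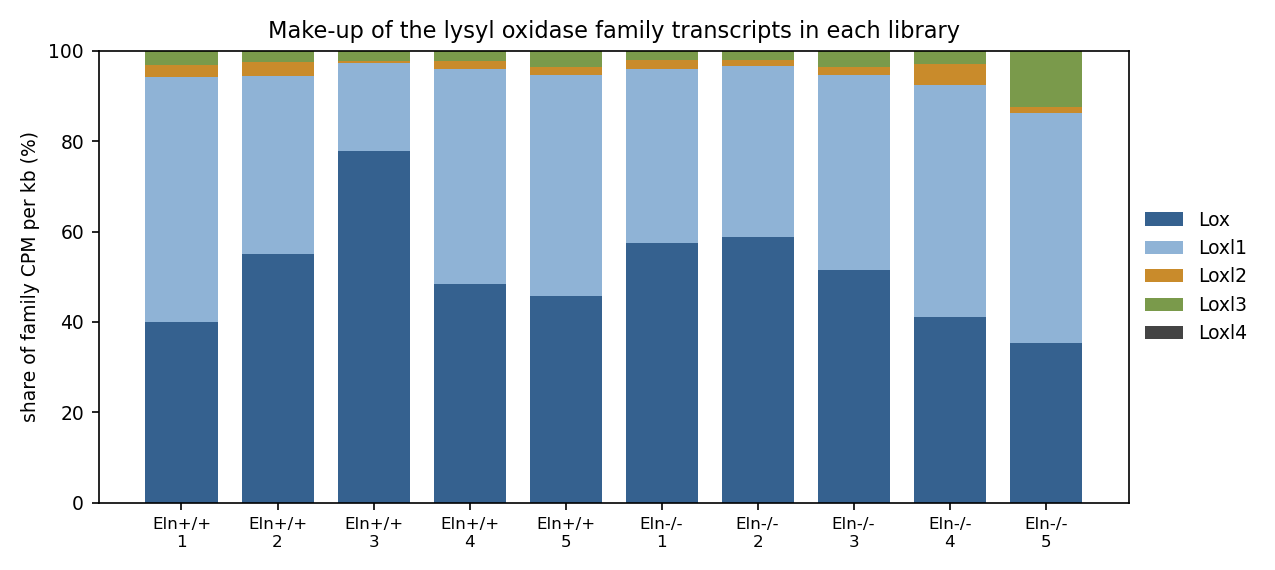
Share of each lysyl oxidase gene in the summed CPM per kb of the 5 genes, 1 stacked bar per library (Eln+/+ replicates 1 to 5, then Eln-/- replicates 1 to 5). Lox and Loxl1 fill most of every bar, Eln+/+ replicate 3 has the largest share of Lox (77.7%) and Eln-/- replicate 5 the largest share of Loxl3 (12.4%).

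Ratios within a library do not depend on how libraries are scaled, so the make-up was also compared between genotypes as a log2 ratio of counts to Lox. For Loxl1 the log2 ratio was -0.93 ± 0.95 in Eln+/+ and -0.66 ± 0.53 in Eln-/-, a difference of 0.27 (exact permutation test, two-sided, p = 0.675, adjusted p = 0.706 over 4 ratios). For Loxl2 it was -4.83 ± 1.53 and -4.42 ± 0.87 (difference 0.41, exact p = 0.706, adjusted p = 0.706). For Loxl3 it was -4.32 ± 0.63 and -3.81 ± 1.37 (difference 0.51, exact p = 0.556, adjusted p = 0.706). The Loxl1 ratio was highest in the 3 libraries with few detected genes, at -0.10 in Eln+/+ replicate 1 and -0.22 and -0.010 in Eln-/- replicates 4 and 5. Without those 3 libraries the differences were 0.11 for Loxl1, 0.23 for Loxl2 and -0.086 for Loxl3. The Loxl4 ratio rests on the prior count in the 6 libraries with no counts and is not read here. The smallest p this test allows is 0.00794. Over the 10 libraries the SD of the Loxl1 ratio was 0.74, less than the SD of log2 CPM of Lox or Loxl1, which were 1.98 and 1.67. Over the 10 libraries the 2 main enzymes thus varied together more than apart. These SDs include the 3 libraries with few detected genes. In the other 7 the SD of log2 CPM was 0.82 for Lox and 1.11 for Loxl1, and the ratio was not summarised there. Eln+/+ replicate 3 was the library where Lox and Loxl1 parted most. It had 5.73 counts of Lox for each count of Loxl1, against 1.01 to 2.24 in the other libraries.

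Profiles over the 10 libraries were compared by the root mean square distance between log2 CPM values centred on each gene's mean, among 8692 other genes with a mean log2 CPM of at least 2. This is a description, with no test, since all genes share the libraries, their depth and the 3 libraries with few detected genes. The closest to Lox were Grb10, an adaptor that dampens insulin and insulin-like growth factor receptors (distance 0.38), Clic4, an intracellular chloride channel protein (0.42), and Nono, an RNA-binding protein of the nucleus (0.43), where the median gene was at 1.96. Among the other matrix genes chosen for their role, Emilin1, a glycoprotein of elastic fibres, ranked 8 of 8692 (distance 0.50), and Col1a1, a chain of the type I collagen that Lox cross-links, 23 (0.57). Plod2, which hydroxylates collagen lysines before cross-linking, ranked 72 (0.66), Fbln5, the fibulin that tethers tropoelastin and Loxl1, 76 (0.67), Loxl1 itself 93 (0.70) and the growth factor gene Tgfb2 97 (0.71). The other matrix genes picked for their role were farther from Lox, with Pcolce at rank 311, Col3a1 at 531, Efemp2 at 601, Mfap4 at 915 and Postn at 949. Fbn1 (2093), Fn1 (2396), Col5a1 (2628), Col4a1 (3393) and Fmod (6286) were farther still, and Fmod was beyond the median gene. Loxl3 was at rank 497 from Lox and Loxl2 at rank 817.

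The closest genes to Loxl1 were Wwp2, a ubiquitin ligase whose exons overlap Mir140 (0.29), Vars, the valyl-tRNA synthetase (0.43), and Sec24c, a coat protein of secretory vesicles whose exons overlap 6230400D17Rik (0.45). The closest to Loxl2 was Loxl1 (0.63), followed by Clca3a2 (0.67; exons overlap Gm43240) and Socs3, an inhibitor of cytokine signalling (0.68). The closest to Loxl3 were Cnn1, the smooth muscle protein calponin 1 (0.31), Serpinb6b, a protease inhibitor (0.32), and Rgs4, a regulator of G protein signalling (0.36).

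**Figure D3:**
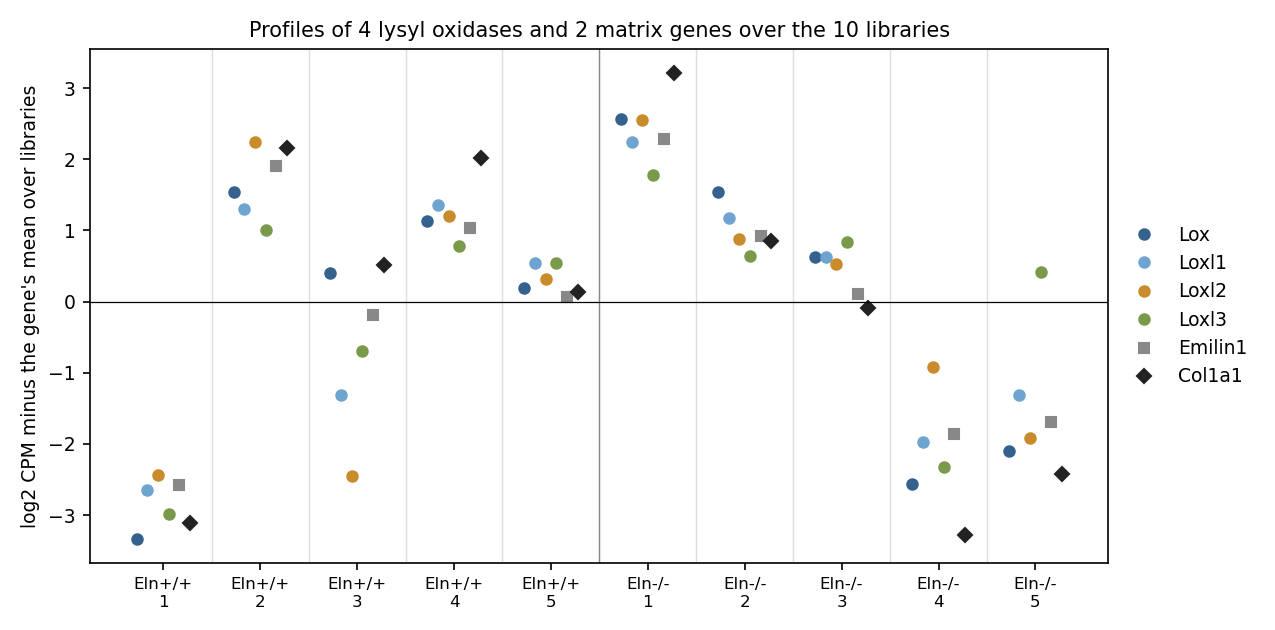
Centred log2 CPM (each gene's mean over the 10 libraries set to 0) of Lox, Loxl1, Loxl2, Loxl3 (circles), Emilin1 (squares) and Col1a1 (diamonds) in each library. All 6 genes are below 0 in Eln+/+ replicate 1 and Eln-/- replicate 4 and above 0 in Eln-/- replicate 1. In Eln+/+ replicate 3, Loxl1, Loxl2 and, less far, Loxl3 are below 0 while Lox is above 0. Loxl3 parts from the others in Eln-/- replicate 5.

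The rest of the cross-linking pathway was described from 8 lists of genes picked for their role. In none of the 8 did a gene pass the threshold with edgeR, in either direction, and Eln was the one gene with an unadjusted p under 0.05. Of the elastic fibre scaffold, which holds tropoelastin and the enzymes in place, 16 of 16 genes were tested, with 7 positive and 9 negative fold changes (median -0.022, log2). Efemp2 (fibulin-4), which binds the Lox propeptide and brings the enzyme to tropoelastin, was at 28.6, 173, 227, 210 and 151 CPM in Eln+/+ replicates 1 to 5 and at 236, 159, 214, 7.84 and 79.2 CPM in Eln-/- replicates 1 to 5. Its groups overlapped (log2 fold change of Efemp2 -0.18, SE 0.76), and its exons overlap those of Mus81. The means in Eln+/+ and Eln-/- were 1469 ± 861 and 1977 ± 1953 CPM for Fbln5. Emilin1 was at 49.7 ± 43.7 and 53.0 ± 59.8 CPM, the microfibril protein Mfap4 at 1174 ± 442 and 951 ± 558 CPM, and Fbn1, the core protein of microfibrils, at 103 ± 62.2 and 100.3 ± 161 CPM. Exons of Mfap4 overlap Mapk7 and those of Fbn1 overlap Gm9913.

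Among collagen substrates, 7 of 9 fibrillar chains were tested, with 5 positive and 2 negative fold changes and a median of 0.15. Col1a1 was at 120, 4627, 1486, 4217 and 1139 CPM in Eln+/+ replicates 1 to 5 and at 9699, 1875, 975, 107 and 195 CPM in Eln-/- replicates 1 to 5. As for Lox, its highest level was in Eln-/- replicate 1 and its lowest levels were in the 3 libraries with few detected genes. Col3a1, whose exons overlap Gm47302, had a log2 fold change of 0.26 (SE 1.02), and Col5a1, a chain that starts fibril growth and whose exons overlap 2810430I11Rik and Gm13372, 0.77 (SE 0.98). Of 6 chains of type IV collagen, the network of basement membranes, 3 were tested and all 3 were positive, with a median of 1.68. Col4a1, whose exons overlap those of Col4a2, reached 152 CPM in a single library, Eln-/- replicate 1, and ranged from 4.07 to 19.9 CPM over the other 9.

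Of the genes that process or dock lysyl oxidases, 9 of 12 were tested, with 7 positive and 2 negative fold changes and a median of 0.45. Bmp1, the protease that cuts off the Lox propeptide, was at 0.0661, 26.3, 6.47, 7.54 and 10.4 CPM in Eln+/+ replicates 1 to 5 and at 76.7, 14.8, 11.2, 0.145 and 4.41 CPM in Eln-/- replicates 1 to 5. It was nearly absent from Eln+/+ replicate 1 and Eln-/- replicate 4, and the groups overlapped (log2 fold change of Bmp1 1.08, SE 1.33). Pcolce, which enhances that protease on procollagen, was at 276 ± 154 and 240.5 ± 174 CPM, and its exons overlap Fbxo24 and Gm36266. The fold changes of 3 matrix proteins known to bind Lox or promote its activation differed in sign without passing the test. The log2 fold change was 1.28 for fibronectin (Fn1, SE 1.07), -0.38 for periostin (Postn, SE 1.24) and 0.45 for fibromodulin (Fmod, SE 1.69). Exons of Fn1 overlap Apol7d.

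Lysyl oxidases receive their copper in the secretory pathway, and 11 of 12 copper genes were tested, with 5 positive and 6 negative fold changes and a median of -0.13. Atp7a, the pump that loads copper into secreted enzymes, was at 0.198, 71.0, 59.8, 27.7 and 17.5 CPM in Eln+/+ replicates 1 to 5 and at 38.3, 36.2, 16.2, 1.02 and 7.16 CPM in Eln-/- replicates 1 to 5 (log2 fold change of Atp7a -0.83, SE 1.12). Atox1, the chaperone that hands copper to that pump, ran the other way across libraries, at 1190, 1310 and 402 CPM in the 3 libraries with few detected genes and at 56.2 to 182 CPM in the other 7. The importer Slc31a1 was at 76.6 to 93.4 CPM in all 5 Eln+/+ libraries, the narrowest Eln+/+ range (highest over lowest) among the lysyl oxidases and pathway genes named here, and at 7.19 to 124 CPM in Eln-/-.

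Of the enzymes that hydroxylate and glycosylate collagen lysines, 7 of 8 were tested, with 4 positive and 3 negative fold changes and a median of 0.097. Plod1 was at 41.5 ± 31.8 and 39.0 ± 36.6 CPM in Eln+/+ and Eln-/-, Plod2 at 130 ± 71.1 and 141 ± 115, and Plod3 at 22.8 ± 15.3 and 25.6 ± 27.1. Exons of Plod2 overlap Gm38391 and those of Plod3 overlap Znhit1 and Mir702. Of 8 other matrix cross-linkers and amine oxidases, 3 were tested. The log2 fold change of transglutaminase 2 (Tgm2) was 0.35 (SE 1.31) and that of peroxidasin (Pxdn), which cross-links collagen IV, was -0.094 (SE 1.13). Exons of Tgm2 overlap Gm20412 and Rprd1b.

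All 16 upstream regulators were tested, with 6 positive and 10 negative fold changes and a median of -0.26. Tgfb1, a growth factor that induces Lox in many cells, was at 1.64 CPM or less in every library, whereas Tgfb2 averaged 71.1 ± 56.0 and 90.9 ± 102 CPM in the Eln+/+ and Eln-/- libraries, with exons that overlap Gm29491. Hif1a, the hypoxia factor known to induce Lox and Loxl2, was at 95.4 ± 58.3 and 75.5 ± 67.1 CPM, with exons that overlap Gm15283 and Gm49321. Snai2, a transcription factor related to the Snail proteins that bind Loxl2 and Loxl3, was at 68.2 ± 38.0 and 35.2 ± 38.6 CPM (log2 fold change of Snai2 -0.95, SE 0.97).

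Much of the direction in these lists rests on Eln-/- replicate 1. Without it, 12 of the 26 pathway genes named here other than Eln changed sign, as did 3 of the 4 tested lysyl oxidases. The medians without it were -0.34 for the lysyl oxidases, -1.56 for fibrillar collagens, -0.83 for type IV collagens, -0.94 for processing and docking genes and -0.79 for the elastic fibre scaffold, against -0.13 over all genes tested. Collagen lysine enzymes were then at -0.63, other cross-linkers at -1.06 and upstream regulators at -0.68. Copper genes kept 5 positive and 6 negative fold changes, with a median of -0.034. Without the 3 libraries with few detected genes the median log2 fold change of the lysyl oxidases, then including Loxl4, was 0.74, and 0.036 over all genes tested. In the same setting it was 1.53 for type IV collagens, 0.89 for processing and docking genes, 0.68 for other cross-linkers and 0.62 for fibrillar collagens. It was 0.40 for the elastic fibre scaffold, 0.31 for collagen lysine enzymes, 0.067 for upstream regulators and -0.058 for copper genes.

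**Figure D4:**
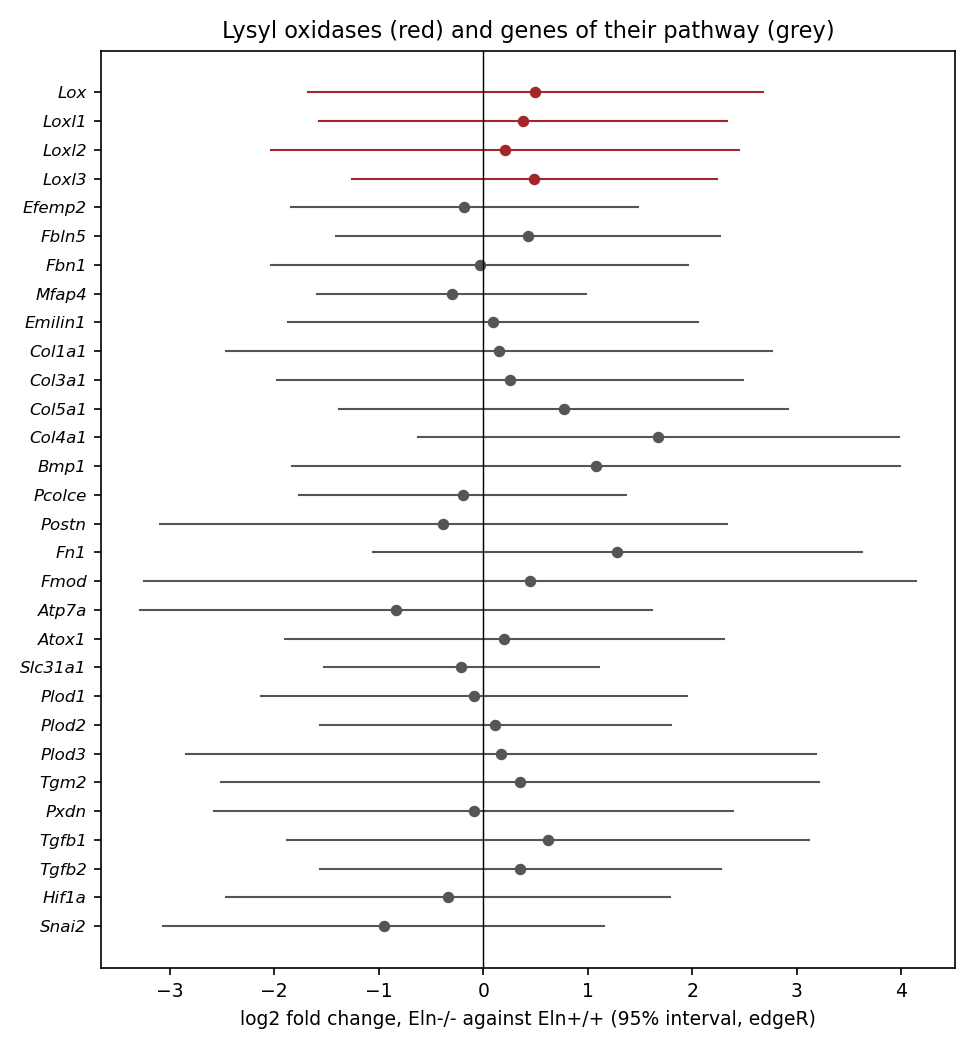
Log2 fold change of Eln-/- against Eln+/+ with its 95% interval from edgeR for the 4 tested lysyl oxidases (red) and 26 pathway genes other than Eln (grey). Every interval includes 0, and those of the lysyl oxidases reach from -2.03 (Loxl2) to 2.67 (Lox).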

How the data were processed

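Per the labels' protocols, a low-input kit for mRNA was used on sorted aortic smooth muscle cells. The authors deposited 1 table of estimated counts per gene for 10 libraries. The build mm10 and the tools STAR and DESeq2 are named per the submitters' processing notes, whereas the counting program, annotation and strandedness were not given in the sources used here. Columns were matched to libraries by their descriptions. Counts were rounded to whole numbers. Genes kept by edgeR's filterByExpr (15718) were scaled with TMM factors, and Eln-/- was compared with Eln+/+ by edgeR's quasi-likelihood test with Benjamini-Hochberg adjustment over all genes. SE was the size of the log2 fold change divided by the square root of F. CPM used the TMM factors, and log2 CPM and ratios used a prior count of 2. Levels per kb used the union of exons in GENCODE mouse release 21. Chromosome, strand and start matched for 27094 genes, and in 27012 of these the deposited end was 1 base past the annotated one, so annotated ends are given. The work used DESeq2 1.42.0, limma 3.58.1 and edgeR 4.0.16 under R 4.3.3. The procedure was tested on simulated data. Members and lists were chosen with earlier results of these data known. The named genes were the 5 members, Eln, 26 pathway genes picked for their role, the 2 most abundant genes of each marker list and the 3 genes closest in profile to each tested member. Of the marker genes only those of smooth muscle, fibroblasts and endothelium are printed, and the further markers among them were named after their values were seen. Other tools, scalings, filters and subsets of libraries were tried as alternatives. Promoter and protein sequences were not used here.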

Additional observations from a re-analysis of the deposited data

Results flagged for a closer look

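Among 64 groups of 5 libraries (the 5 lysyl oxidases, Eln and the 26 pathway genes, in CPM, in each genotype), 15 had 1 library whose gap to its nearest neighbour exceeded 0.71 of the group's range, the 95% critical value of Dixon's test. Chance flags about 1 in 20 groups only where values are normally distributed. CPM values were not log-transformed here and are skewed, so their rate is not known, and genes of a library are not independent. Of the 15, 11 were in Eln-/- replicate 1, always the highest: Loxl2 at 74.9 CPM, Eln at 0.493, Fbn1 at 387, Col1a1 at 9699, Col3a1 at 3300, Col5a1 at 165, Col4a1 at 152, Bmp1 at 76.7, Postn at 1123, Fn1 at 1029 and Pxdn at 223 CPM. Lox, Loxl1 and Loxl3 were also highest there but did not pass that limit. The others were Loxl4 at 1.32 CPM in Eln+/+ replicate 2, Atox1 at 1190 CPM in Eln+/+ replicate 1 and at 1310 CPM in Eln-/- replicate 4, and Tgfb1 at 1.64 CPM in Eln+/+ replicate 3.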

How the results depend on the processing

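No lysyl oxidase passed the threshold in any setting run. DESeq2 called 6 genes in all, limma-voom with sample quality weights 7, edgeR without Eln+/+ replicate 2 and Eln-/- replicate 1 together 1, and 0 to 1 when 1 library was left out. With the replicate block, an added term for the replicate number, 0 genes were called with edgeR (71 at an unadjusted p under 0.05), and the log2 fold change was -0.46 for Lox and -0.0016 for Loxl2. Replicate numbers did not pair the libraries: deviations of same-numbered libraries from their genotype means had correlations of -0.56 to 0.51 across genes. The block also turned Bmp1 (-0.37), Col1a1 (-1.36), Col3a1 (-1.37), Col4a1 (-0.15), Col5a1 (-0.63), Emilin1 (-0.53), Fbln5 (-0.16), Fmod (-2.0), Fn1 (-0.19), Plod2 (-0.34), Plod3 (-1.35) and Tgfb2 (-0.23). Without Eln+/+ replicate 2 and Eln-/- replicate 1 together, the values were -0.041 for Loxl1, -1.14 for Col1a1, -1.15 for Col3a1, -0.50 for Col4a1, -0.70 for Col5a1, -0.22 for Emilin1, -0.0092 for Fbln5, -0.50 for Fmod, -0.63 for Fn1, -0.29 for Plod2, -0.26 for Plod3 and -0.090 for Tgfb2, and Tgfb1 did not pass the filter there. Without the 3 libraries with few detected genes they were -0.38 for Atox1, 0.12 for Efemp2, 0.38 for Fbn1, 0.041 for Hif1a, 0.063 for Pcolce, 0.25 for Plod1, 0.020 for Postn, 0.40 for Pxdn and 0.34 for Slc31a1, and the genotype difference of the Loxl3 to Lox ratio was -0.086. Limma-voom with sample quality weights gave -0.33 for Atox1, -0.83 for Col1a1, -0.89 for Col3a1, -0.67 for Col4a1, -0.82 for Col5a1, -0.12 for Emilin1, -0.20 for Fmod, -0.31 for Fn1, -0.27 for Plod3 and 0.21 for Slc31a1, and scaling by library size only gave 0.00050 for Fbn1. The cause of these turns was not tested.

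With each library left out in turn, log2 fold changes ranged from -0.34 to 0.86 for Lox, -0.34 to 0.71 for Loxl1, -0.77 to 1.03 for Loxl2 and 0.035 to 0.78 for Loxl3. The ratio of mean CPM of Loxl4, untested, was -0.49 to 6.81 on the log2 scale. Genotype differences of ratios to Lox were -0.13 to 0.48 for Loxl1, -0.25 to 0.70 for Loxl2 and -0.056 to 0.80 for Loxl3, and the Loxl3 to Loxl2 step per kb was 0.53 to 0.94 (0.93 with the longest transcript). Other ranges were Atox1 -0.94 to 1.51, Bmp1 -0.41 to 1.81, Col1a1 -1.56 to 0.57, Col3a1 -1.61 to 0.72, Col4a1 -0.83 to 2.01, Col5a1 -1.14 to 1.21, Efemp2 -0.46 to 0.13, Emilin1 -0.83 to 0.70, Fbln5 -0.30 to 0.72, Fbn1 -1.85 to 0.29, Fmod -0.94 to 0.88, Fn1 -1.23 to 1.89, Pcolce -0.65 to 0.089, Plod1 -0.76 to 0.26, Plod2 -0.40 to 0.38, Plod3 -0.54 to 0.49, Pxdn -2.41 to 0.42, Slc31a1 -0.48 to 0.088, Tgfb2 -0.57 to 0.83 and Tgm2 -0.033 to 1.51.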
